A study of Mus musculus with 12 samples.

Results

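Endogenous GZF1 was mapped by chromatin immunoprecipitation with an anti-GZF1 antibody in wild-type mouse embryonic stem cells of the Cas9-GFP line (called Cas9 here) and of the RGM line, a 129xCAST background, with 1 library for each line. These are 2 of the 12 libraries of the series, and 8 of the 12 are in the table of 1 kb bins used here. Reads per bin were divided by the library's own mean across the 2462755 autosomal bins, so that a read density of 1 is the autosomal mean. Each bin was then set against the median density of the 10 bins on either side. The resulting local log2 value is log2((density + 0.5)/(local median + 0.5)), and a bin was called raised at 1.5 or more. Of the autosomal bins 2227575 were tested (90.5%). In Cas9 513 bins were raised (0.023% of those tested), and in RGM 5467 (0.245%). The same bin was raised in both lines at 465 positions (0.0209%), which is 90.6% of the Cas9 bins and 8.51% of the RGM bins. A bin was called line-specific where it was raised in one line, stayed below 0.5 in the other, and the 95% interval of the ratio of both folds excluded 1. By that rule 3 bins were Cas9-specific (0.000135%) and 782 were RGM-specific (0.0351%). The interval left out 0 of the RGM bins that met the other conditions, so it added nothing to that call. Line-specific bins were chosen by these values, so the intervals printed for them are a description. The RGM-specific count depended on the settings, with 4303 and 68 at pseudocounts of 0.25 and 1, and 26027 and 7 at thresholds of 1 and 2. It was 1485 with columns scaled to their median and 2523 with the other line allowed up to 1. With 25 bins on either side as background it was 534, and with the nearest 2 bins left out of the background 1105. Of the 782 bins themselves, 257 and 539 stayed under these 2 backgrounds, and 657 and 38 at the pseudocounts of 0.25 and 1. The Cas9-specific count ran from 0 to 379 over the same alternatives.

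GZF1 is a zinc-finger protein with a BTB domain, first described as induced by the growth factor GDNF in RET-expressing cells. It binds DNA by sequence and acts as a transcriptional repressor, and the human protein is known to bind a regulatory region of HOXA10. Dlk1-Dio3, the imprinted gene cluster in the title of the study, has its parental alleles told apart by methylation of the IG-DMR, a control region that lies between Dlk1 and Meg3.

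Alongside the wild-type libraries stood Gzf1-Flag overexpression with anti-FLAG in both lines (Cas9 clone 35 and RGM clone 56, each 1 clone), a Gzf1 knockout and a control with anti-GZF1 in Cas9, and from Cas9 also input chromatin and H3K27ac, the histone acetylation found at active promoters. No input or knockout of RGM was used here. All chromatin was fixed with formaldehyde and cut with micrococcal nuclease, an enzyme that cuts between nucleosomes. The Cas9 wild-type library held 60.6 M reads and the RGM one 21.8 M, or 23.6 and 8.61 reads per autosomal bin on average. At a local background of 1 a bin therefore needed 88.3 reads in Cas9 and 32.2 reads in RGM to be called. The other libraries held 10.1 to 94.2 M reads. The knockout and control libraries stood apart from the rest on chromosome X, with median densities of 0.820 and 0.964, against 0.594 in Cas9 wild type and 0.348 in RGM wild type. Expression of stem cell markers cannot be read from these libraries. With 1 library a line no difference between lines has a replicate check, no p-value is given, and line, library and depth cannot be told apart.

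The promoters of 6 genes at shared sites, taken from RefSeq (GRCm38.p6), are shown as examples of both kinds of shared site. Vat1l, Dnajb12, Rbmxl1 and Cald1 were also raised with anti-FLAG in both lines, while Gpam and Atxn1l were raised with it in RGM only. Each runs from 250 bases before to 50 bases after the gene's start, with the hexamer TGCGCG, or CGCGCA on the other strand, in capitals. The windows are chr8:114205390-114205689 (plus strand) for Vat1l, chr10:59879333-59879632 (plus) for Dnajb12, chr8:78508879-78509178 (minus) for Rbmxl1, chr6:34709194-34709493 (plus) for Cald1, chr19:55099428-55099727 (minus) for Gpam and chr8:109737731-109738030 (minus) for Atxn1l.
Vat1l: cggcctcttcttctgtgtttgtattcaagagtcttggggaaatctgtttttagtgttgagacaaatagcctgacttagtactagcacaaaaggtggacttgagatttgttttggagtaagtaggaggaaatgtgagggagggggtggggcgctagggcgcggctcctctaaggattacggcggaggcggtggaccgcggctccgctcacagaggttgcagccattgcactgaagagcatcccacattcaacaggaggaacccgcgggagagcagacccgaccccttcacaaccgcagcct
Dnajb12: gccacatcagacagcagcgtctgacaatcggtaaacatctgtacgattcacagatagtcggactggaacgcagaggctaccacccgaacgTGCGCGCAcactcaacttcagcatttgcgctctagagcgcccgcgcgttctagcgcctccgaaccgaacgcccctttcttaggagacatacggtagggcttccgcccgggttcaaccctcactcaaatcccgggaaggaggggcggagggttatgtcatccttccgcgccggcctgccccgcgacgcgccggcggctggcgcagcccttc
Rbmxl1: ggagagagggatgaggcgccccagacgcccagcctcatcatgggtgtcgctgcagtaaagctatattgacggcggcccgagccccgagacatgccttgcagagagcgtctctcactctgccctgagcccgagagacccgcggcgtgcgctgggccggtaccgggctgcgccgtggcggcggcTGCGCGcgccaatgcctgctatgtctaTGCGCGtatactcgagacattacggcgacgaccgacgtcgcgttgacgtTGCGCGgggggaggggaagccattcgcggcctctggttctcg
Cald1: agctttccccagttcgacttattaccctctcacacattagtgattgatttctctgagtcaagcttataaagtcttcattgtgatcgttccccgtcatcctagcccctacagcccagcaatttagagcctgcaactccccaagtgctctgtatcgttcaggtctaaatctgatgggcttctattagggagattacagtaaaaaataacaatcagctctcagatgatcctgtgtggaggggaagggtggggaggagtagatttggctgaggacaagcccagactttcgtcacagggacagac
Gpam: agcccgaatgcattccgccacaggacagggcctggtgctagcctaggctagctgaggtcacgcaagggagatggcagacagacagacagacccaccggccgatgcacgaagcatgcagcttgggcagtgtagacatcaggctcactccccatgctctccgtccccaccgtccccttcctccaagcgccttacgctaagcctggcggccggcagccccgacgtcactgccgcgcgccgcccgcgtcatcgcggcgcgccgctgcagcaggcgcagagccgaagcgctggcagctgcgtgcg
Atxn1l: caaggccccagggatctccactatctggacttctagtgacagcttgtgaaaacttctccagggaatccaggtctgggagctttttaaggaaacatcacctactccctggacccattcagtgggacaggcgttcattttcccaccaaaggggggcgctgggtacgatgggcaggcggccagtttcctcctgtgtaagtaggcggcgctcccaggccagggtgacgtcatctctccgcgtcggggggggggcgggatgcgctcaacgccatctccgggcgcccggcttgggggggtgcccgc
The hexamer stood 3 times in the Rbmxl1 window and 2 times in the Dnajb12 window, and in none of the other 4 windows. The 2 in Dnajb12 overlap, as the stretch TGCGCGCA holds the hexamer on both strands. A second Rbmxl1 promoter in the same bin (chr8:78508519-78508818), not shown, held 0, as did the promoters of Pdzrn3 and H2-Q4. CpG pairs numbered 14 in Vat1l, 33 in Dnajb12, 38 in Rbmxl1, 5 in Cald1, 30 in Gpam and 17 in Atxn1l. A match of these letters is a description of the window, not a binding site.

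The strongest shared site lay at the start of Vat1l, which encodes a relative of the vesicle amine transport protein VAT1 (chr8:114205001-114206000). It held 208.6 reads in Cas9 and 102.4 in RGM, and the density was 8.85 (95% exact Poisson interval 7.69 to 10.1) in Cas9 and 11.9 (9.70 to 14.4) in RGM. The local log2 value was 2.70 in Cas9 and 3.22 in RGM. Both lines were high at this bin, and the bins to its left and right had lower densities, 1.62 and 2.93 (Cas9) and 2.10 and 2.74 (RGM). The anti-FLAG libraries held 494 reads in Cas9 and 442 in RGM there, with local log2 values of 3.36 and 3.54. The Gzf1 knockout held 52.4 reads and the control 70.2, local log2 values of 0.42 and 0.83.

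A bin 104 bases from the start of Pdzrn3, a ubiquitin ligase with PDZ domains, held 199 reads in Cas9 and 117 in RGM (chr6:101378001-101379000). Its local log2 values were 2.36 in Cas9 and 2.72 in RGM. The anti-FLAG libraries held 508 reads in Cas9 and 486 in RGM, and the Gzf1 knockout held 35.5 reads against 83.8 in the control. Dnajb12, a co-chaperone of the endoplasmic reticulum membrane, held 222 reads in Cas9 and 115 in RGM at chr10:59879001-59880000, local log2 values of 2.35 and 2.66. Gnal, the olfactory G protein alpha subunit, had a site inside the gene at chr18:67088001-67089000 with 155 reads in Cas9 and 108 in RGM, local log2 values of 2.24 and 3.04. The bin at the start of Slc10a7 held 209 reads in Cas9 and 104 in RGM, local log2 values of 2.16 and 2.49. It lies next to the bin with the starts of Rbmxl1, an RNA-binding protein gene. A site inside Adra1a, the alpha-1A adrenergic receptor gene, held 160 reads in Cas9 and 87.4 in RGM, local log2 values of 2.14 and 2.84. At Slc10a7 the knockout held 84.3 reads and the control 80.7, and at Gnal they held 42.9 and 37. At Dnajb12 the knockout held 70.7 reads and the control 92.2, and at Adra1a 31.5 and 53. Vat1l and these 5 sites were also high with anti-FLAG, where local log2 values ran from 2.61 at Dnajb12 in RGM to the 3.54 of Vat1l in RGM. H2-Q4, a class Ib gene of the major histocompatibility complex, was the remaining site of the strongest 15 that was raised with anti-FLAG in both lines. It held 93.8 reads in Cas9 and 60 in RGM, local log2 values of 2.34 and 2.97, with anti-FLAG values of 1.65 in Cas9 and 2.07 in RGM.

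The other 8 of the strongest 15 were not raised with anti-FLAG in Cas9, but 7 of them were raised with anti-FLAG in RGM, at 1.56 to 1.86, and Nek1 stood at 1.40 there. The starts of Gpam, the mitochondrial enzyme that opens glycerolipid synthesis, and of Gm31356 share a bin with 169 reads in Cas9 and 100.2 in RGM, local log2 values of 2.26 and 2.92. Its anti-FLAG values were 1.25 in Cas9 and 1.57 in RGM. The bins at Csf2ra, a chain of the GM-CSF receptor, at Fbxw7, a substrate receptor of a ubiquitin ligase, and at Ppa2, a mitochondrial pyrophosphatase, had local log2 values of 2.17, 2.17 and 2.11 in Cas9 and of 2.57, 2.43 and 2.49 in RGM. Esyt2, a tether between the endoplasmic reticulum and the plasma membrane, stood at 2.10 in Cas9 and 2.62 in RGM. Atxn1l, a relative of ataxin 1, stood at 2.09 in Cas9 and 2.78 in RGM. A bin inside Nek1, a kinase linked to cilia, stood at 2.08 in Cas9 and 2.44 in RGM, and a bin with no gene within 5 kb (chr8:19980001-19981000) at 2.06 and 2.33. Input from Cas9 was itself raised at Gnal, with 10 reads and a local log2 value of 1.59. It stood at 1.47 at H2-Q4, 1.30 at Fbxw7, 1.22 at Atxn1l and 1.13 at Vat1l. At the remaining sites of the 15 input ran from 0.11 at Pdzrn3 to 0.99 at Nek1. All 15 had the higher local log2 value of anti-GZF1 in RGM. At 9 of the 15 the interval of the ratio of folds, Cas9 over RGM, lay below 1, as at Vat1l (0.66, 0.518 to 0.845), and at the other 6 it held 1, as at Dnajb12 (0.83, 0.664 to 1.06). These intervals cover counting error of the bin only, and amplified reads are not separate molecules.

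**Figure D1:**
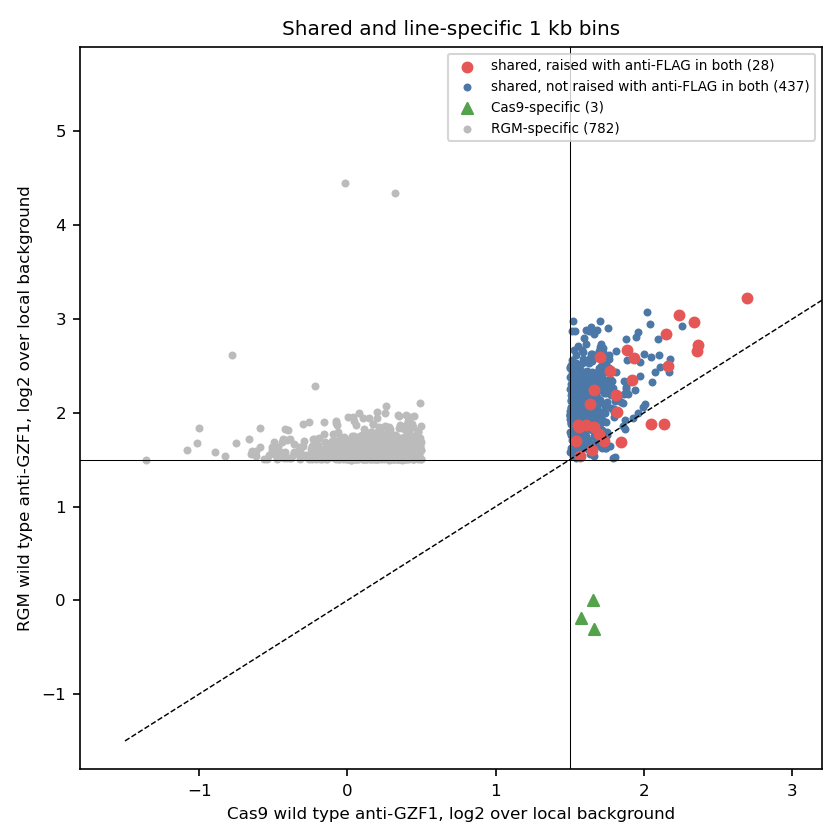
Local log2 value of anti-GZF1 in Cas9 (x axis) and RGM (y axis), 1 point per 1 kb bin, for the 465 shared, 3 Cas9-specific and 782 RGM-specific bins; solid lines mark 1.5 and the dashed line equal values. Most shared bins lie above the dashed line, and 2 RGM-specific bins stand above 4 in RGM.

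**Figure D2:**
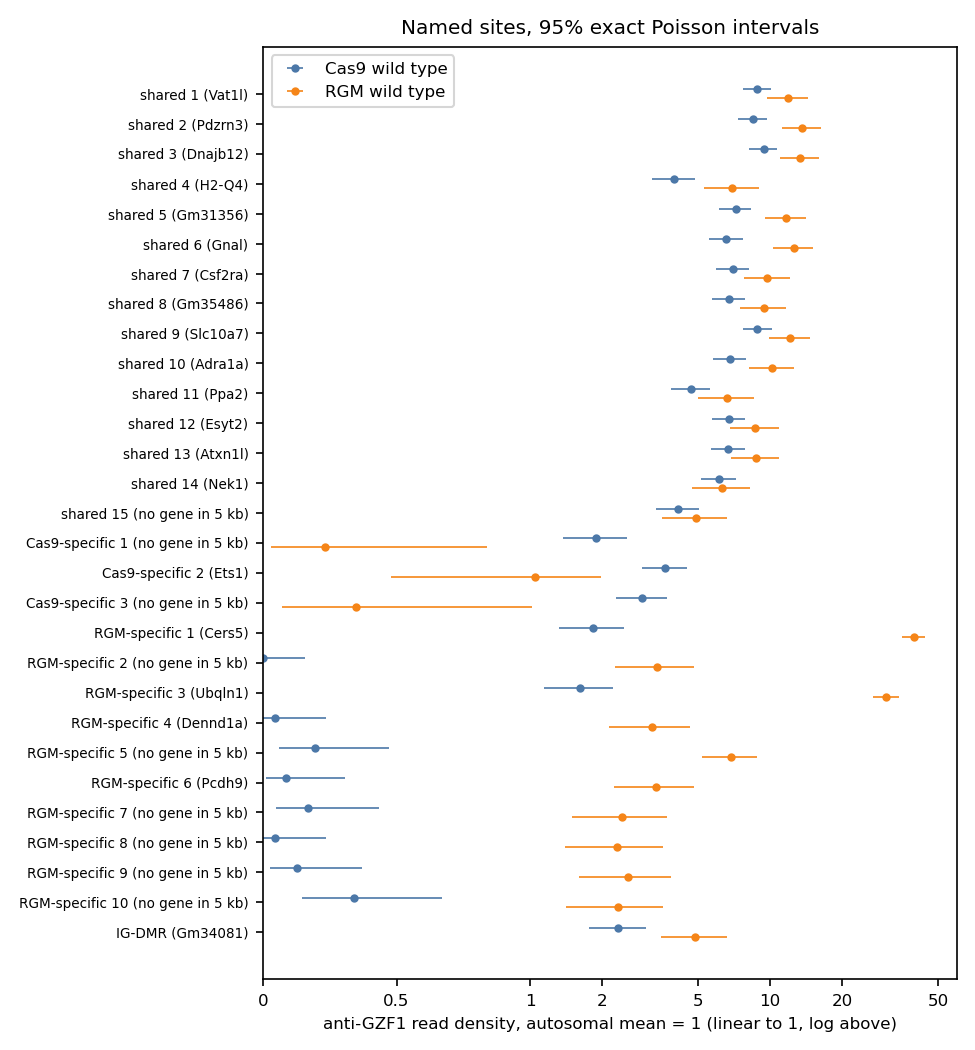
Anti-GZF1 read density (autosomal mean of 1) with 95% exact Poisson intervals at the 15 strongest shared sites, the 3 Cas9-specific sites, 10 RGM-specific sites and the IG-DMR bin; the axis is linear to 1 and logarithmic above. Shared sites lie between 3.98 and 9.40 in Cas9 and between 4.92 and 13.6 in RGM.

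Across all 465 shared bins, which form 453 separate regions, the median local log2 value was 1.61 in Cas9 and 2.14 in RGM. The median difference, Cas9 minus RGM, was −0.47, and RGM was higher in 442 of 465. These bins were chosen by those values, so this is a description. The number of shared bins depended on the pseudocount, with 1059 at 0.25 and 74 at 1, and on the threshold, with 4554 at 1 and 19 at 2. It was 1120 without the limit on input density. The 465 bins held 0.0917% of autosomal reads in Cas9 and 0.135% in RGM. The bins just inside and just outside the threshold had local log2 values of 1.50002 and 1.49996 in Cas9 and of 1.50004 and 1.49984 in RGM. Of 48 bins raised in Cas9 and not in RGM, 39 lay between 1 and 1.5 in RGM and 6 between 0.5 and 1. Of 5002 raised in RGM and not in Cas9, 2458 (49.1%) lay between 1 and 1.5 in Cas9 and 1762 (35.2%) between 0.5 and 1. Across all bins tested the rank correlation of local log2 values between the lines was 0.248 with anti-GZF1 (2227575 bins, which share the genome's mappability and chromatin) and 0.314 with anti-FLAG, against 0.125 between Cas9 wild type and Cas9 control with anti-GZF1.

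Depth was brought level by thinning the Cas9 reads at random to 8.61 per bin. The thinned Cas9 library then had 888 raised bins, against 5454 in RGM over the bins then tested. Of the 888, 637 were shared (71.7% of the Cas9 bins), and 352 of these were among the 465. At that depth 49 bins were Cas9-specific and 848 RGM-specific, 618 of them among the 782. The SD of local log2 values over all bins was 0.460 in thinned Cas9 and 0.548 in RGM.

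The anti-FLAG, knockout, control and H3K27ac libraries were not used to choose the bins, while input was, through the limit on its density. With anti-FLAG 0.0148% of all bins tested were raised in Cas9 and 0.0317% in RGM. Of the 465 shared bins 28 were raised with it in both lines (6.02%), in 24 regions. They make up 16.5% of the 170 bins raised with anti-FLAG in both lines (0.00763% of bins tested). In these 28 the median local log2 value was 1.81 in Cas9 and 2.14 in RGM with anti-GZF1, and 2.75 in Cas9 and 2.59 in RGM with anti-FLAG. The Gzf1 knockout had a median of 0.33 and the control 0.42, with the knockout lower in 19 of 28. None of the 28 was raised in either, where 0.00593% of all bins tested were raised in the knockout and 0.00462% in the control. At the start of Cald1, the actin-binding protein caldesmon, the knockout held 25.4 reads (local log2 −0.39) against 122.6 in the control (1.02), and wild type held 193 reads in Cas9 (2.05) and 83.2 in RGM (1.88). Other bins of this group lay at the start of Gapdh, the glycolytic enzyme, with 169 reads in Cas9 and 90.0 in RGM and a local log2 value of 0.64 in both the knockout and the control, and of Klhl9, an adaptor of a ubiquitin ligase, with 97.8 reads in Cas9 and 40.5 in RGM.

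In the other 437 shared bins the medians were 1.60 in Cas9 and 2.14 in RGM with anti-GZF1, and 1.00 in Cas9 and 1.40 in RGM with anti-FLAG. With anti-FLAG 4 of them were raised in Cas9 and 160 in RGM. The knockout and control had medians of 0.54 and 0.54, and the knockout was lower in 244 of 437. H3K27ac had a median of 1.01 in the 28 bins and 1.20 in the 437, and input 0.65 in the 28 and 0.68 in the 437. Input was raised in 15 of the 465 shared bins (3.23%), against 0.543% of bins tested. It reached a local log2 value of 1 or more in 94 (20.2%), although bins with an input density above 3 had already been left out. Input lay below 1 in 371 of the 465 shared bins and in 2093553 of the 2227575 bins tested, so shared bins reached 1 more often. Its part in the anti-GZF1 values was not tested. The control was deposited as a separate group from wild type, and what sets them apart was not given in the sources used here. The mean density over the 28 bins was 6.17 in Cas9 and 8.13 in RGM, against 1.48 in the knockout and 1.74 in the control. Over the 437 it was 4.77 in Cas9 and 7.06 in RGM, against 1.86 in the knockout and 1.89 in the control.

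**Figure D3:**
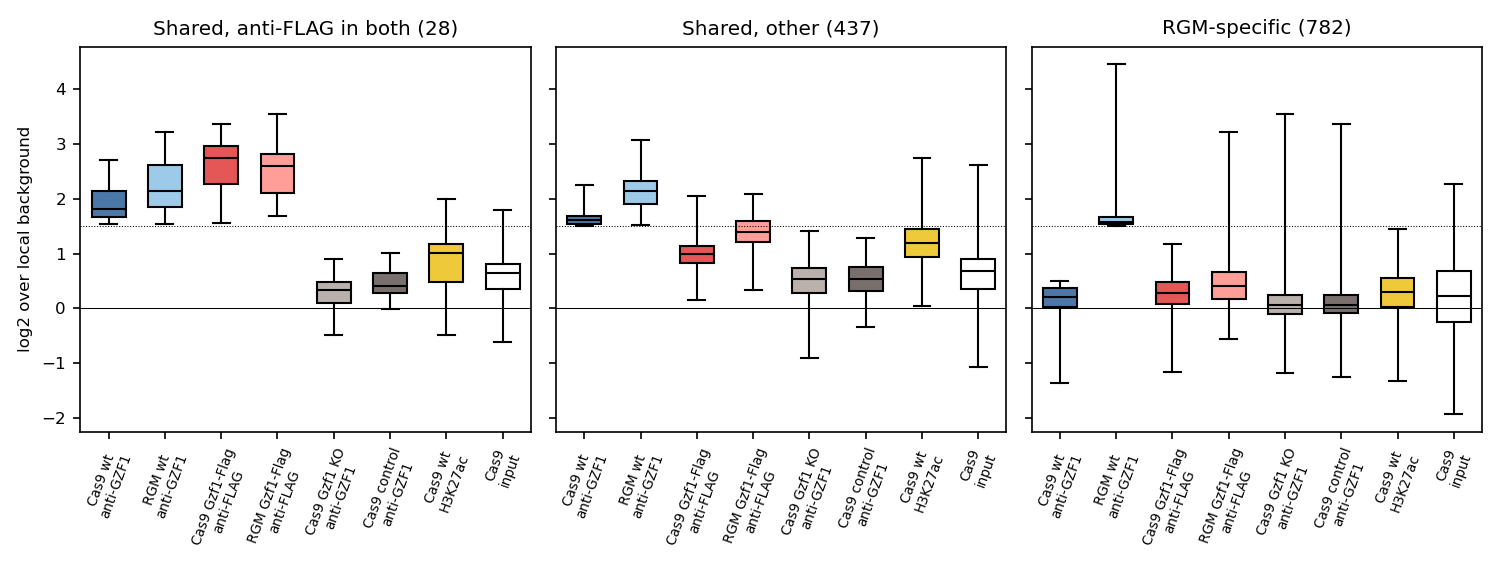
Local log2 values in the 8 libraries for the 28 shared bins raised with anti-FLAG in both lines, the other 437 shared bins and the 782 RGM-specific bins; boxes give quartiles and median, whiskers the lowest and highest bin, and the dotted line 1.5. Anti-FLAG medians are 2.75 in Cas9 and 2.59 in RGM in the left panel and 1.00 and 1.40 in the middle one, while the knockout and control medians stay below 0.6 in all 3.

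**Figure D4:**
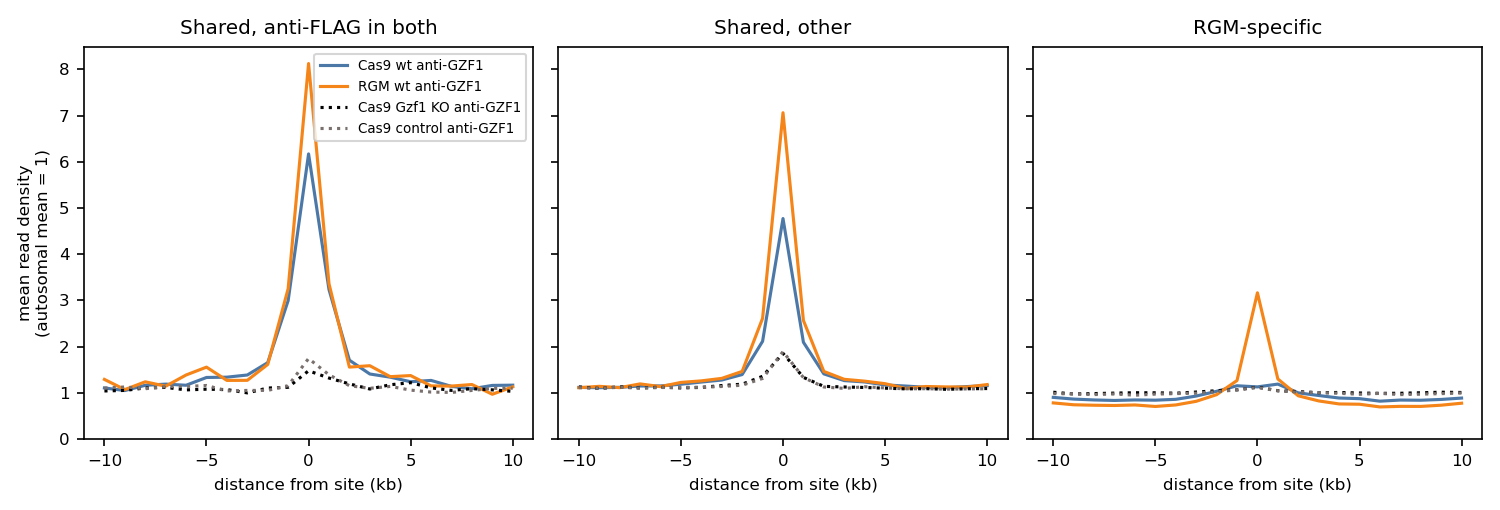
Mean read density (autosomal mean of 1) within 10 kb of the site centre for the same 3 sets, in Cas9 and RGM wild type and in the Cas9 knockout and control, all with anti-GZF1. The peak is 6.17 in Cas9 and 8.13 in RGM in the left panel, and 1.13 in Cas9 and 3.17 in RGM in the right one.

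Bins chosen without anti-GZF1 gave a comparison of the lines that the choice did not set. At the 170 bins raised with anti-FLAG in both lines the median anti-GZF1 value was 1.00 in Cas9 and 1.13 in RGM. The median difference was −0.21, RGM was higher in 113 of 170 (66.5%), and 34 were raised in Cas9 and 56 in RGM. At the 620 bins raised with H3K27ac (0.0278% of bins tested) the medians were 1.20 in Cas9 and 1.75 in RGM, and the median difference was −0.54. There RGM was higher in 572 (92.3%), and 99 were raised in Cas9 and 438 in RGM. After thinning, the medians were 1.03 in Cas9 and 1.13 in RGM at the anti-FLAG bins, and 1.21 and 1.75 at the H3K27ac bins. Over all tested bins RGM was higher in 50.7%. The anti-FLAG libraries had medians of 0.89 in Cas9 and 1.19 in RGM at the H3K27ac bins. At the 170 bins chosen by anti-FLAG they ran the other way, with 2.19 in Cas9 and 1.95 in RGM and the lower value in Cas9 in 50 of 170.

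Of the 782 RGM-specific bins, 2 had far more reads than the rest, and both were high with RGM anti-FLAG as well. A bin inside Cers5, a ceramide synthase gene (chr15:99735001-99736000), held 43 reads in Cas9 and 341 in RGM, a density of 1.82 in Cas9 and 39.6 in RGM. Its local log2 value was −0.01 in Cas9 and 4.45 in RGM, and the ratio of folds, Cas9 over RGM, was 0.033 (0.0237 to 0.0460). With anti-FLAG it held 36.4 reads in Cas9 and 477 in RGM. The bin to its right held 49.2 reads in Cas9 and 109 in RGM. A bin inside Ubqln1, whose protein carries ubiquitinated clients to the proteasome (chr13:58177001-58178000), held 38.1 reads in Cas9 and 262 in RGM. Its local log2 value was 0.32 in Cas9 and 4.34 in RGM, and with anti-FLAG it held 35.8 reads in Cas9 and 396 in RGM. The Cers5 bin was the highest of all 5467 bins raised in RGM, and both stood above the 3.22 of Vat1l. No RGM input was used here, so these values were not set against the amount of DNA in RGM.

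Another bin, with no gene within 5 kb (chr10:126511001-126512000), held 4.60 reads in Cas9 and 59 in RGM, local log2 values of −0.78 and 2.62. Its anti-FLAG reads were 18.8 in Cas9 and 92.2 in RGM, local log2 values of 0.04 and 1.60. In all 8 of the 782 (1.02%) were raised with RGM anti-FLAG, against 0.0317% of bins tested, and in none with Cas9 anti-FLAG. In 6 of those 8 the Cas9 anti-FLAG value was below 0.5. Besides the 3 above they lay in Zfp993, a zinc-finger gene (2 bins), at Gm13271, at Gm40371 and in 1 bin of chromosome 5 without a gene. The bin at Gm40371 held 33.2 reads in Cas9 and 50.5 in RGM with anti-GZF1, and 53.7 in Cas9 and 150 in RGM with anti-FLAG. These 8 bins were picked after their values were seen.

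The remaining RGM-specific bins whose interval lay farthest from 1 rested on few reads. A bin at chr10:99339001-99340000 held 0 reads in Cas9, which allows a density of up to 0.127 at 3 reads, and 29 in RGM, a density of 3.37. Bins inside Dennd1a, an activator of the trafficking GTPase Rab35, and Pcdh9, a protocadherin, held 1 and 2 reads in Cas9 and 27.7 and 28.9 in RGM. At Pcdh9 the anti-FLAG libraries held 0 reads in Cas9 and 63.8 in RGM, H3K27ac and input from Cas9 held 0, and the knockout and control held 22 and 19. The other 4, on chromosomes 1, 5 and 10 with no gene within 5 kb, held 1 to 8 reads in Cas9 and 19.8 to 22 in RGM. In all, 682 of the 782 (87.2%) held fewer than 40 RGM reads, and the median was 23 reads in each line, a density of 0.98 in Cas9 and 2.67 in RGM. The medians over the 782 were 0.21 in Cas9 and 1.58 in RGM with anti-GZF1, and 0.28 in Cas9 and 0.41 in RGM with anti-FLAG. The knockout and control stood at 0.06 each, H3K27ac at 0.30 and input at 0.23. The bin at chr9:124257001-124258000 was the 1 bin among them raised in the knockout and the control, with 605 and 586 reads, against 37.6 in Cas9 wild type and 38 in RGM wild type.

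Of the 3 Cas9-specific bins, 1 was also high with anti-FLAG. It lay inside Ets1, a transcription factor gene (chr9:32636001-32637000), and held 86 reads in Cas9 and 9 in RGM, local log2 values of 1.66 and 0. The ratio of folds was 4.47 (2.25 to 10.1). With anti-FLAG the bin held 216 reads in Cas9 and 157 in RGM, local log2 values of 2.35 and 1.82, so the tagged protein's library was raised there in both lines. The bin to its left held 41 reads in Cas9 and 21 in RGM, densities of 1.74 and 2.44. The knockout held 34 reads in the Ets1 bin and the control 24. The bin at chr17:33053001-33054000 held 44.5 reads in Cas9 and 2 in RGM (ratio 13.0, 3.43 to 112). Its local background in Cas9 was a density of 0.254, close to the 0.25 required, and with 25 bins on each side as background its Cas9 value was 0.52, which ended the call. The bins 2 and 3 kb to its right held 0 reads in wild type and with anti-FLAG in both lines, while the knockout held 30.6 and 21.6 and the control 34 and 33.1. The bin at chr12:20230001-20231000 held 69 reads in Cas9 and 3 in RGM (ratio 6.02, 1.98 to 29.9), and H3K27ac had a local log2 value of 2.06 there. Neither of these 2 bins had a gene within 5 kb. Input had a local log2 value of 1.52 in the chromosome 17 bin (8 reads), 1.16 in the chromosome 12 bin and −0.17 in the Ets1 bin.

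Shared bins lay mostly at gene starts. Outside chromosome 18, whose start sites were not used here, 328 of 443 shared bins had a start within 1 kb (74.0%, exact binomial 95% interval 69.7 to 78.1%), against 3.07% of all bins tested. A further 97 lay inside a gene only and 11 had no gene within 5 kb. Bins raised with H3K27ac had a start within 1 kb in 76.6%. The share was 51.9% in the shared bins raised with anti-FLAG in both lines (14 of 27) and 75.5% in the other shared bins (314 of 416). RGM-specific bins had a start within 1 kb in 114 of 754 (15.1%, 12.6 to 17.9%) and no gene within 5 kb in 360 (47.7%, against 39.7% of all bins).

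**Figure D5:**
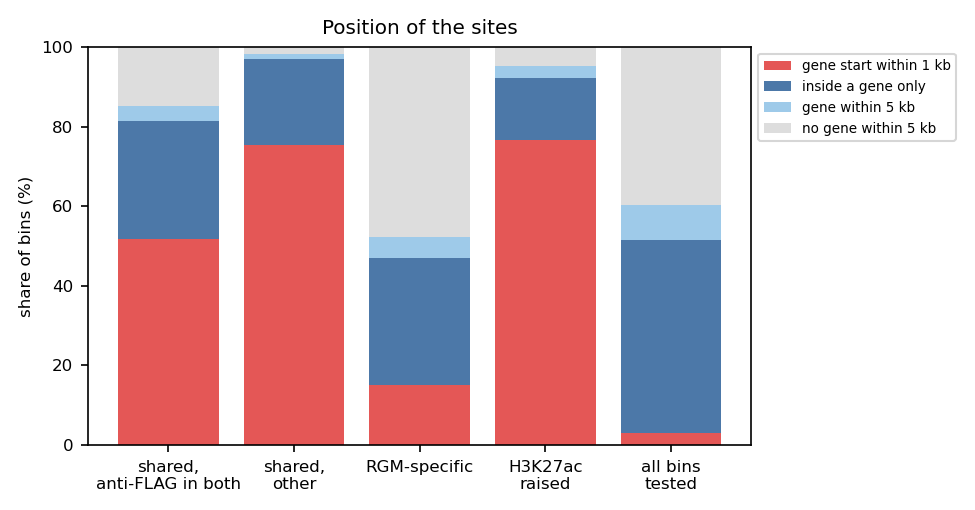
Share of bins (%) with a gene start within 1 kb, inside a gene only, with a gene within 5 kb, or with no gene within 5 kb, for 5 sets of bins outside chromosome 18. A start lies within 1 kb of 51.9% and 75.5% of the shared sets, 15.1% of RGM-specific bins and 3.07% of all bins.

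Promoters whose start bin was shared were rich in CpG, with a median of 30 CpG pairs in 300 bases, against 7 in all 31396 promoters of the table. The hexamer TGCGCG, searched on both strands (as CGCGCA on the other), stood in 130 of 400 such promoters (32.5%), in 12 of 59 promoters at RGM-specific bins (20.3%), and in 12.8% of all promoters. Among promoters with 20 to 29 CpG pairs the share was 32.8% at shared bins and 28.5% in the table, and with 30 or more it was 39.7% and 47.6%. Promoters at H3K27ac bins held it in 52.0%.

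Gene starts were also read directly, as the highest local log2 value over the start bin and 1 bin on either side. Of 24616 genes measured, 438 were raised in Cas9 (1.78%), 3557 in RGM (14.4%) and 413 in both (1.68%), and the median was 0.46 in Cas9 and 0.69 in RGM. RGM was higher at 18216 genes, and at 16679 of 24599 with Cas9 thinned, where 710 were raised in Cas9. In the 9 gene lists no member was raised in Cas9.

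In the Dlk1-Dio3 domain 6 of 8 listed genes were measured, and 0 were raised in Cas9 and 2 in RGM. Dio3, the deiodinase that inactivates thyroid hormone, had 0.90 in Cas9 and 1.95 in RGM, and Dlk1, a Notch-family ligand expressed from the paternal allele, 0.90 in Cas9 and 1.72 in RGM. Begain stood at 0.76 in Cas9 and 1.47 in RGM. Meg3, the maternally expressed non-coding RNA, had the higher value in Cas9, 1.16 against 0.72 in RGM. Mirg stood at 0.26 in Cas9 and 0.44 in RGM, and Rian at −0.41 in Cas9 and −0.38 in RGM. The bin between Dlk1 and Meg3 with the most anti-FLAG signal (chr12:109527001-109528000, at the IG-DMR) held 55 reads in Cas9 and 42 in RGM, densities of 2.33 (1.76 to 3.04) and 4.88 (3.52 to 6.59). It was raised in neither line (local log2 1.16 in Cas9 and 1.30 in RGM), and the ratio of folds was 1.05 (0.691 to 1.61). The line difference in density lay in the surroundings as well: the 2 bins on either side stood at 0.76 to 1.31 in Cas9 and 2.32 to 3.62 in RGM. Anti-FLAG held 368 reads in Cas9 and 460 in RGM in that bin, the knockout 5 and the control 59.4. The control was not raised there, with a local log2 value of 0.20 over a local background of 1.38. The knockout stood at −0.81 over a lower local background of 0.64, so its density was low around the bin as well.

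Of 23 imprinted genes measured 7 were raised in RGM, with list medians of 0.87 in Cas9 and 1.15 in RGM. Zrsr1 and Commd1, both among the 7, had identical values in every library (1.01 in Cas9 and 1.52 in RGM) and are not separate observations. Ndn stood at 1.45 in Cas9 and 1.71 in RGM, Gnas at 1.20 and 2.01, Magel2 at 1.13 and 1.61, and Ube3a at 1.09 and 2.05, while the lowest, Zim1, stood at −0.04 and 0.94. The 10 genes of GDNF and RET signalling had medians of 0.65 in Cas9 and 1.22 in RGM, with 5 raised in RGM. Gzf1 itself stood at 1.17 in Cas9 and 1.88 in RGM, the GDNF co-receptor Gfra1 at 1.10 and 1.56, the ETS factor Etv5 at 0.97 and 1.65, the ligand gene Gdnf at 0.96 and 1.76, and the inhibitors Spry2 at 0.87 and 2.09 and Spry1 at −0.20 and −0.03. None of 9 Hoxa genes was raised in either line, and Hoxa10 had 0.92 in Cas9 and 0.53 in RGM. Hoxa5 stood at 0.85 in Cas9 and 0.92 in RGM, Hoxa11 at 0.57 and 1.03, Hoxa13 at 0.41 and 0.87, and Hoxa9 at −0.10 and 0.45.

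Among 13 genes of DNA methylation and imprint maintenance 4 were raised in RGM, with medians of 0.66 in Cas9 and 1.11 in RGM. The methyltransferase genes Dnmt3a and Dnmt1 stood at 1.31 and 0.99 in Cas9 and at 1.91 and 2.02 in RGM. Uhrf1, the partner of DNMT1, stood at 1.13 in Cas9 and 1.42 in RGM, Zfp445 at 0.99 and 1.43, and Trim28 at −0.05 and 0.04. Of 13 germline genes 3 were raised in RGM: Dazl, Hormad1 and Sycp3, at 1.87, 1.57 and 1.72. Mael stood at 1.10 in Cas9 and 1.11 in RGM, Stk31 at 1.03 and 1.17, Tdrd1 at 0.94 and 1.25, and Mov10l1 at 0.26 and 1.16. Of 13 pluripotency genes Klf4 was raised in RGM (0.70 in Cas9 and 1.85 in RGM). Zfp42 stood at 0.96 in Cas9 and 1.01 in RGM, Esrrb at 0.77 and 1.16, Sox2 at 0.62 and 0.99, and Fgf4 at −0.0038 and −0.11. Of 11 ribosomal protein genes Rpl13 was raised in RGM (0.94 in Cas9 and 1.61 in RGM), Rps24 stood at 1.09 in Cas9 and 1.20 in RGM, and Rps3 at 1.23 and 0.81. Of 12 genes of differentiated tissues none was raised, and medians were 0.27 in Cas9 and 0.56 in RGM, from Neurod1 at 0.80 and 1.11 to Alb at 0.06 and 0.13. The counts of raised members in RGM are to be read against the 14.4% of all genes raised there.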

How the data were processed

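The deposited table gives, per the file headers, reads per 1 kb bin for 8 libraries. Judged from the values, which are not whole but were not scaled to a common depth, the authors deposited estimated counts (expected counts), with reads that cross a bin edge split between bins. Per the submitters' processing notes, cutadapt, Bowtie2 2.5.4, SAMtools, deepTools and mm10 were used; how duplicates and poorly mapped reads were handled is not given in the sources used here. From these counts, density, local background and the local log2 value were computed with a pseudocount of 0.5. Bins needed a local median density of 0.25 in both lines (170039 left out, chromosome ends included) and an input density of at most 3 (65141 left out). Intervals are 95% exact Poisson or Clopper-Pearson, cover counting error only, and treat the local background as known. For a count of 0 a limit of 3 reads is given, which lies below the upper end of the exact Poisson interval. Scripts were tested on simulated data. Genes named were the 15 shared sites with the highest lower value, the 10 line-specific sites whose interval lay farthest from 1, all Dlk1-Dio3 genes, and up to 4 highest and the lowest member of each other list. Bins of anti-FLAG in RGM-specific sites, Cald1, Gapdh and Klhl9, the promoters shown, raised list members outside the rule and the filter on local input were chosen after the values were seen. The members and lists were chosen with earlier results of these data known. Promoters and gene positions came from RefSeq (GRCm38.p6). Python 3.11.15, numpy 2.4.6, pandas 2.3.3, scipy 1.17.1 and matplotlib 3.10.9 were used. The other 4 libraries of the series were not analysed here.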

Additional observations from a re-analysis of the deposited data

Results flagged for a closer look

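Chromosome X was outside the comparison of autosomal bins. Of its 109710 bins tested with the same rule, 22 were raised in both lines, with 26 raised in Cas9 and 175 in RGM, against 1 in the knockout and 0 in the control. Of the 2227575 autosomal bins tested, 465 (0.0209%) were raised in both lines, 513 (0.023%) in Cas9 and 5467 (0.245%) in RGM. The knockout had 132 (0.00593%) and the control 103 (0.00462%). Bins raised in both lines and in Cas9 made up a similar share on chromosome X, and those raised in RGM, the knockout and the control a smaller one. In 3 of the 22 the anti-FLAG libraries held far more reads than in the rest: 365, 474 and 262 in Cas9 and 209, 209 and 138 in RGM, with 87.8, 132 and 117 anti-GZF1 reads in Cas9 and 42.1, 29.2 and 38.2 in RGM. The median density of chromosome X differed between libraries, with 0.594 in Cas9 wild type, 0.348 in RGM wild type, 0.820 in the knockout and 0.964 in the control, and its part in these counts was not tested.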

How the results depend on the processing

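No paired analysis was possible because each group has 1 library, and no replicate could be left out. Counts are given for bins raised in Cas9, raised in RGM, shared, Cas9-specific and RGM-specific, then genes raised in Cas9 and in RGM. With a pseudocount of 0.25 the bin counts were 1223, 11931, 1059, 20 and 4303, with 963 genes in Cas9. A pseudocount of 1 gave 84, 2457, 74, 0 and 68, with 77 and 2111 genes, and the median difference at shared bins was −0.39. A threshold of 1 gave 5865, 42850, 4554, 379 and 26027, with 3690 and 7812 genes and a difference of −0.43. A threshold of 2 gave 22, 1095, 19, 0 and 7, with 18 and 990 genes. Without the input filter 1203, 9445 and 1120 bins were raised in Cas9, in RGM and shared, with 1055 and 6553 genes and a difference of −0.54. Thinning Cas9 gave 888 bins and 710 genes raised in Cas9, 49 Cas9-specific bins and a difference of −0.36. Scaling to the median gave 1485 RGM-specific bins. With the other line below 1, 7 bins were Cas9-specific and 2523 RGM-specific. Cas9-specific bins numbered 1 with a background of 25 bins on each side, and 1 with bins of local input 1 or more left out, a filter added after the data were seen. The cause was not tested. The share of Cas9 bins that were shared ran from 71.7 to 93.1%. No called value changed sign under these settings. Of 464 values of named sites under these settings 399 moved by less than their counting interval and 65 by more. The 399 include 58 values without the input filter and 58 with the filter on local input, settings that choose bins and could not move a value. At a pseudocount of 1, 33 values moved by more than their interval and 25 by less. In RGM 3 reads are a density of 0.348, against 0.127 in Cas9, so low densities are resolved less finely in RGM. Lower depth did not lower the count of raised bins, as thinned Cas9 had 888, against 513 at full depth.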
